A study of Homo sapiens with 6 samples.

Results

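The genes described here mark the naive or the primed state of human pluripotent stem cells, and they were measured by bulk RNA sequencing in undifferentiated H7 cells with and without an intact S6K1 gene. The members were chosen by gene symbol and comprise KLF4, KLF5, KLF17, TFCP2L1, DPPA2, DPPA3, DPPA4, DPPA5 and ZIC2, which are 9 of the 61155 symbols in the count table. S6K1 is the ribosomal S6 kinase encoded by RPS6KB1, and H7 is an established human embryonic stem cell (hESC) line. The comparison was between 3 libraries of wild-type (WT) H7 hESCs and 3 libraries of S6K1-/- H7 hESCs, and it addressed how the transcriptome of the stem cells differed before organoid differentiation. Both groups were grown without feeder cells on Matrigel in TeSR-E8 medium, and neither received a differentiation treatment, although the labels give both a time of week 5. S6K1-/- cells were made with Cas9 and guides against exons 9 and 11 of RPS6KB1, whereas the labels name their genotype as S6K1 knockdown. The S6K1-/- cells were a single clone, so that the genotype and the clone cannot be told apart. The labels do not state that the 3 libraries of a group came from separate cultures, and p-values therefore measure the spread between these libraries, which may be technical.

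Naive pluripotent cells resemble the epiblast of the embryo before implantation, and primed cells, which include conventional hESC lines, resemble the epiblast after it. KLF4, KLF5 and KLF17 are zinc finger transcription factors, TFCP2L1 is a grainyhead-like factor and DPPA3 and DPPA5 are small proteins of the early embryo and germ line, all associated with the naive state in human cells. DPPA2 and DPPA4 form a chromatin-binding pair with SAP domains that is expressed in pluripotent cells of both states. ZIC2 is a zinc finger factor of the primed state, where it takes part in enhancer activation.

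Library totals ranged from 21896698 to 24473013 counts, and 3 counts corresponded to between 0.122 and 0.138 CPM (counts scaled to a library of 1000000 counts). RPS6KB1 had 831, 791 and 777 counts in WT and 464, 464 and 438 in S6K1-/- libraries, a log2 fold change of -0.75 (95% interval -0.87 to -0.63, adjusted p = 2.52e-07 by edgeR's quasi-likelihood test). The defining hESC markers POU5F1, SOX2 and NANOG were present at 181 ± 3.71, 301 ± 9.72 and 191 ± 5.96 CPM in WT (SD, n = 3) and did not pass the test, with adjusted p-values of 0.733, 0.564 and 0.428 by edgeR. Of 19521 genes tested at the adjusted p threshold of 0.001, 496 fell in S6K1-/- hESCs (2.54%) and 278 rose (1.42%).

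None of the 9 genes passed that threshold with edgeR or with DESeq2's Wald test. KLF17 had no count in any library, and the other 8 were tested, of which 7 had a log2 fold change below 0 and 1 above it. By an unadjusted p below 0.05 in edgeR, 4 of the 8 were lower (KLF4, KLF5, TFCP2L1 and DPPA3) and 1 was higher (DPPA5), beside 14.5% and 11.8% of all genes tested. In bulk RNA, fewer cells that express a gene and less of its RNA per cell cannot be told apart. At the more lenient adjusted p of 0.05, where 8.31% of all genes tested were lower and 5.47% higher, TFCP2L1 was lower and DPPA5 was higher. The median log2 fold change of the 8 was -0.18, beside -0.00 over all genes tested, of which 9879 lay below 0. The 3 WT and 3 S6K1-/- libraries did not overlap for 4 of the 8 in the lower direction (KLF5, TFCP2L1, DPPA3 and DPPA4) and for 1 in the higher direction (DPPA5), whereas 16.7% and 14% of all genes tested separated in this way.

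**Figure D1:**
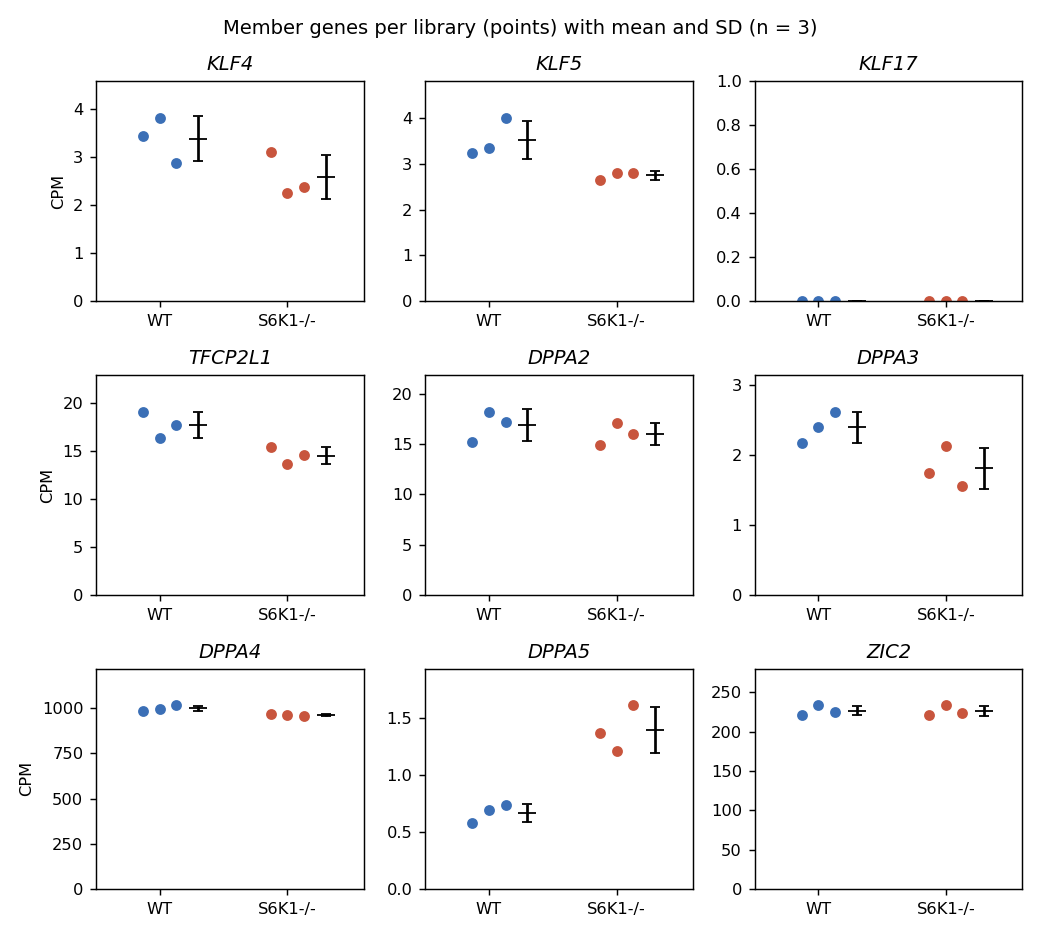
CPM (vertical axis, from 0) of each of the 9 genes in WT and S6K1-/- libraries, with 1 point per library and the mean and SD (n = 3) beside them. DPPA5 lies higher in each S6K1-/- library, TFCP2L1 lies lower, and KLF17 stays at 0.

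The 9 genes spanned a wide range of levels. Per kilobase of annotated exons, DPPA4 reached 201 ± 3.09 CPM in WT (SD, n = 3) and exceeded 99.3% of the genes tested. ZIC2 followed at 68.9 ± 1.78 and DPPA2 at 12.2 ± 1.13 CPM per kilobase. A lower tier held DPPA3 at 2.18 ± 0.204, TFCP2L1 at 1.89 ± 0.149, DPPA5 at 1.01 ± 0.124, KLF5 at 0.959 ± 0.113 and KLF4 at 0.925 ± 0.129 CPM per kilobase. In this order, DPPA3 and TFCP2L1 overlapped between their WT libraries, as did DPPA5 and KLF5, and KLF5 and KLF4. DPPA5 stood higher in the order in S6K1-/- hESCs, at 2.12 ± 0.304 CPM per kilobase, where it overlapped DPPA3 at 1.65 ± 0.264 and each of its libraries was above those of TFCP2L1 at 1.55 ± 0.0939 and of KLF5 at 0.747 ± 0.0251. The primed factor ZIC2 and the DPPA2-DPPA4 pair were thus the abundant transcripts, and the naive-associated factors stood near or below the 38.3rd percentile that DPPA3 held among the genes tested in WT.

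**Figure D2:**
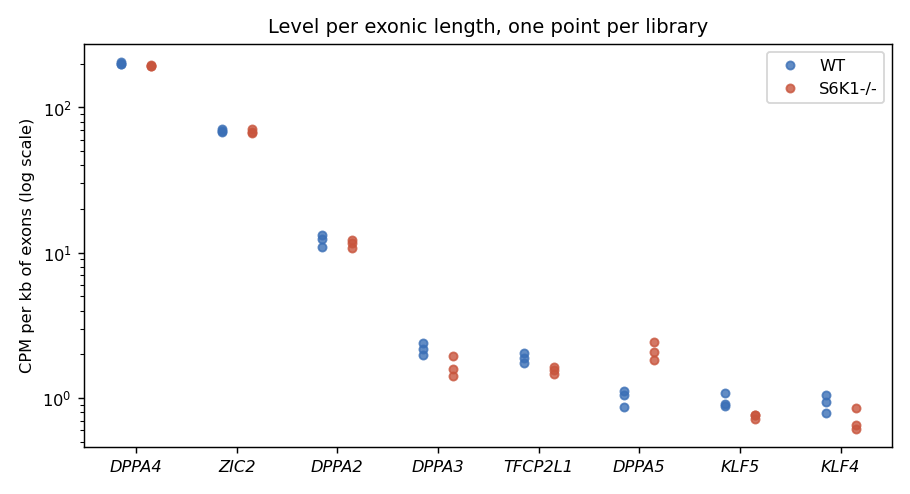
Level of each tested gene as CPM per kilobase of exons (vertical log axis), with 1 point per library for WT and S6K1-/- hESCs. DPPA4, ZIC2 and DPPA2 stand above the other genes in both groups, and DPPA5 lies beside KLF5 in WT and above TFCP2L1 in S6K1-/- hESCs.

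KLF4, a reprogramming factor that holds naive cells in self-renewal, lies on the minus strand at chr9:107484852-107490482 of GRCh38 and has 5 exons. It had 84, 94 and 67 counts in WT and 73, 54 and 52 in S6K1-/- libraries, and the groups overlapped. The mean was 3.39 ± 0.473 CPM in WT and 2.58 ± 0.459 in S6K1-/- hESCs (SD, n = 3), a log2 fold change of -0.39 (95% interval -0.74 to -0.04) that did not pass the test (adjusted p = 0.139 by edgeR). KLF5, a relative that is active in the early blastocyst, lies on the plus strand at chr13:73054976-73077541 with 4 exons. Its counts were 79, 82 and 93 in WT and 62, 67 and 61 in S6K1-/- libraries, each S6K1-/- library being below each WT library. Its log2 fold change was -0.36 (95% interval -0.66 to -0.06, adjusted p = 0.109 by edgeR). For both genes the interval excluded 0 while the p adjusted over 19521 genes missed 0.05.

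KLF17, a marker that separates human naive from primed cells, lies on the plus strand at chr1:44118821-44135140 with 4 exons. It was at 0 counts in each of the 6 libraries, which allows up to 3 counts, or 0.138 CPM in the shallowest library. This limit covers counting error alone. A KLF17 difference between the groups below this limit was therefore not detectable at this depth.

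TFCP2L1, a transcription factor of the naive network downstream of LIF and STAT3 signalling, lies on the minus strand at chr2:121216587-121285202 with 15 exons. It had 466, 402 and 411 counts in WT and 362, 327 and 317 in S6K1-/- libraries, so that the groups stood apart. The mean was 17.7 ± 1.40 CPM in WT and 14.5 ± 0.880 in S6K1-/- hESCs (SD, n = 3). This was a log2 fold change of -0.29 (SE 0.0764, 95% interval -0.45 to -0.12), with an adjusted p of 0.0206 by edgeR's quasi-likelihood test. The adjusted p rose above 0.05 without WT replicate 1 (0.111), WT replicate 3 (0.0661), S6K1-/- replicate 2 (0.0948) and S6K1-/- replicate 3 (0.0718) in edgeR, and was 0.0926 with DESeq2's Wald test on the 6 libraries.

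DPPA3, a maternal factor also known as STELLA, lies on the plus strand at chr12:7711433-7717559 with 4 exons. Its counts were 53, 59 and 61 in WT and 41, 51 and 34 in S6K1-/- libraries. Groups did not overlap, with 2.401 ± 0.225 CPM in WT and 1.81 ± 0.290 in S6K1-/- hESCs (SD, n = 3), yet the log2 fold change of -0.40 (95% interval -0.77 to -0.03) did not pass the test (adjusted p = 0.152 by edgeR). Reads of DPPA3 can be shared with its pseudogenes. DPPA3P2 had 7, 6 and 5 counts in WT and 10, 6 and 8 in S6K1-/- libraries, and was the 1 of 11 pseudogenes of these genes that reached 10 counts in a library.

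DPPA5 showed the largest fold change of the 8 tested. It encodes a KH-domain protein of early embryonic cells, lies on the minus strand at chr6:73353063-73354276 and has 3 exons. Its counts were 14, 17 and 17 in WT and 32, 29 and 35 in S6K1-/- libraries, with each S6K1-/- library above each WT library. The mean was 0.666 ± 0.0814 CPM in WT and 1.39 ± 0.200 in S6K1-/- hESCs (SD, n = 3), which is 2.08-fold (95% interval 1.47 to 2.93). On the log2 scale the change was 1.06 (SE 0.232), with an adjusted p of 0.00620 by edgeR's quasi-likelihood test and 0.0673 by DESeq2's Wald test. Its pseudogenes had at most 1 count in a library.

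DPPA2 and DPPA4 lie next to each other on the minus strand of chromosome 3, at chr3:109293788-109316517 with 9 exons and chr3:109326144-109337546 with 7 exons, separated by 9.63 kb. DPPA2 had 369, 448 and 400 counts in WT and 350, 408 and 349 in S6K1-/- libraries, and the groups overlapped (log2 fold change -0.08, 95% interval -0.25 to 0.09, adjusted p = 0.602 by edgeR). DPPA4 had 24018, 24495 and 23615 counts in WT and 22765, 23088 and 20906 in S6K1-/- libraries. After normalization this was 999.9 ± 15.3 and 965 ± 4.57 CPM (SD, n = 3), and the groups stood apart although the log2 fold change was -0.05 (95% interval -0.14 to 0.03, adjusted p = 0.449 by edgeR). DPPA4 exceeded DPPA2 per kilobase of exons by 16.5-fold in WT and 16.8-fold in S6K1-/- hESCs. The intervals allow a change of DPPA4 between 0.911-fold and 1.02-fold and of DPPA2 between 0.842-fold and 1.07-fold.

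ZIC2, the primed-state member, lies on the plus strand at chr13:99981784-99986765 with 3 exons. It had 5396, 5731 and 5232 counts in WT and 5191, 5586 and 4868 in S6K1-/- libraries, or 227 ± 5.87 and 226 ± 6.46 CPM (SD, n = 3). The groups overlapped, and the log2 fold change of -0.00 (95% interval -0.09 to 0.08, adjusted p = 0.963 by edgeR) changed sign between processing alternatives.

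**Figure D3:**
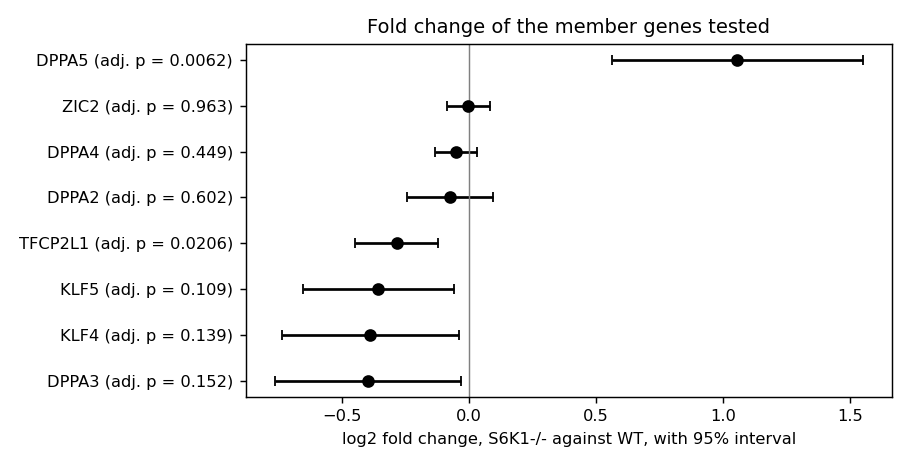
Log2 fold change of S6K1-/- against WT hESCs (horizontal axis) for the 8 genes tested, with 95% intervals as bars and the adjusted p of edgeR's quasi-likelihood test in the row label. DPPA5 lies at 1.06, ZIC2, DPPA4 and DPPA2 lie close to 0, and the other 4 lie between -0.40 and -0.29.

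Other genes at the DPPA5 locus on chromosome 6 were also higher in S6K1-/- hESCs. Among the 3 nearest tested genes on each side of DPPA5, the oocyte protein gene OOEP had 13, 11 and 10 counts in WT and 213, 204 and 198 in S6K1-/- libraries, a log2 fold change of 4.22 (95% interval 3.90 to 4.55, adjusted p = 4.28e-11 by edgeR). OOEP begins 14.3 kb above the end of DPPA5 in the coordinates of GRCh38 and lies on the same strand. RPS6P8, a processed pseudogene inside the gene body of OOEP, had 2, 0 and 3 counts in WT and 20, 11 and 19 in S6K1-/- libraries (adjusted p = 9.56e-04 by edgeR). On the same strand as OOEP, its reads may not be separable from OOEP reads, and it passed the low-count filter only through its S6K1-/- libraries. The normalised ratio of its summed counts was 10.4 (95% exact interval 4.18 to 33.5, counting error only). Its fitted log2 fold change was 3.29, but 2.72 without WT replicate 2 and 3.99 without WT replicate 3, and its adjusted p was between 0.000921 and 0.00738 when a library was left out. On the other side of DPPA5, KCNQ5, a potassium channel gene, had 69, 56 and 55 counts in WT and 28, 35 and 33 in S6K1-/- libraries and was lower at 0.05 (log2 fold change -0.84, adjusted p = 0.00467 by edgeR).

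A window around DPPA5, chosen after its values were seen, took genes whose lower end lay within 150 kb of that of DPPA5. It held 19 symbols, of which 10 were tested. DDX43, a germline RNA helicase, had 26, 14 and 12 counts in WT and 347, 363 and 308 in S6K1-/- libraries (log2 fold change 4.34, 95% interval 4.004 to 4.68, adjusted p = 4.32e-11 by edgeR). CGAS, the gene of a cytosolic DNA sensor that overlaps DDX43, had 119, 138 and 120 counts in WT and 185, 186 and 177 in S6K1-/- libraries, a log2 fold change of 0.60 (adjusted p = 5.40e-04 by edgeR, and between 0.000620 and 0.00371 with a library left out). OOEP, RPS6P8, DDX43 and CGAS were the 4 genes of the window past 0.001, of which RPS6P8 may not be separate from OOEP. DPPA5 joined them at 0.05, and none was called lower, beside 1.42% of all genes tested higher at 0.001 and 5.47% at 0.05. KCNQ5 has its lower end outside this window, and its upper end also lies just outside it. KHDC1, EIF3EP1, RPL39P3, MTO1 and EEF1A1 did not pass the test, with log2 fold changes of 0.18, 0.60, -0.14, -0.04 and 0.01. KHDC3L, an OOEP partner located between DPPA5 and OOEP, had at most 3 counts in a library. Per kilobase of exons, DPPA5 had a mean level of 1.01 CPM in WT, above 0.299 for OOEP and 0.264 for DDX43, and of 2.12 CPM in S6K1-/- hESCs, below 5.66 for OOEP and 5.40 for DDX43. OOEP and DDX43 overlap by 306 bp and DDX43 and CGAS by 4052 bp, in each case on opposite strands. The strand setting of the counting is not given in the sources used here, so that reads in these overlaps cannot be assigned, and their part in the higher counts of CGAS was not tested.

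**Figure D4:**
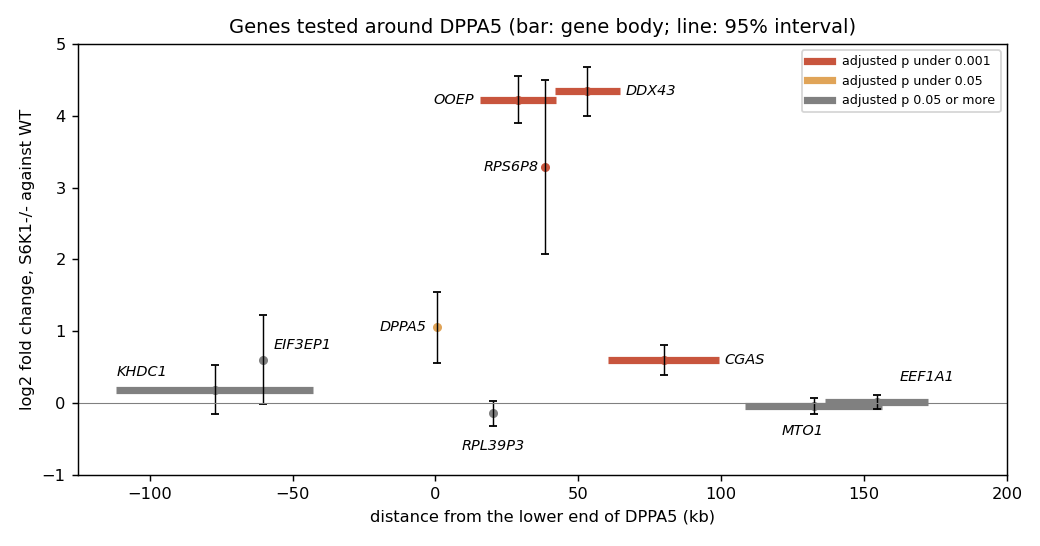
Log2 fold change of S6K1-/- against WT hESCs (vertical axis) for the 10 tested genes in the window around DPPA5, drawn along the distance from its lower end in kb (horizontal axis). Thick bars are gene bodies, thin lines are 95% intervals and colours give the adjusted p of edgeR. OOEP, RPS6P8 and DDX43 lie above 3, DPPA5 and CGAS lie between 0.5 and 1.1, and KHDC1, MTO1 and EEF1A1 lie close to 0.

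The 250 bases before the transcription start were read from the RefSeq promoter table (GRCh38.p14) for the genes on which these results turn. DPPA5, OOEP and DDX43 are shown because they were higher together at 1 locus, TFCP2L1 because it was the member lower at 0.05, and DPPA4 because it was the most abundant member. Capitals mark CACCC, a KLF-type motif, or CCGCCC, a GC box, on either strand, where GGGTG and GGGCGG are the reverse complements. The windows are chr6:73354277-73354526 on the minus strand for DPPA5, chr6:73369898-73370147 on the minus strand for OOEP, chr6:73394578-73394827 on the plus strand for DDX43, chr2:121285203-121285452 on the minus strand for TFCP2L1 and chr3:109337547-109337796 on the minus strand for DPPA4. The OOEP window belongs to a RefSeq start that lies 25.2 kb inside the GENCODE gene body used above, and thus to a shorter transcript. Each is written 5′ to 3′ in the direction of transcription.
DPPA5: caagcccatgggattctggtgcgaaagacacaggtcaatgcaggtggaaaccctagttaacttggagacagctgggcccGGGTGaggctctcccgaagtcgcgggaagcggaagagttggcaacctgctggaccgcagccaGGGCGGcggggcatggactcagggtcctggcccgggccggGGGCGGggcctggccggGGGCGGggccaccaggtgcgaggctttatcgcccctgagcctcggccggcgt
OOEP: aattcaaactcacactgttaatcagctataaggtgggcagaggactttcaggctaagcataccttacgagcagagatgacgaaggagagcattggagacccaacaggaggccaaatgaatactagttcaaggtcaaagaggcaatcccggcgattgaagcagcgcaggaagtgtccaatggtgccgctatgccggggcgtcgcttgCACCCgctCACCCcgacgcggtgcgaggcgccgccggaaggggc
DDX43: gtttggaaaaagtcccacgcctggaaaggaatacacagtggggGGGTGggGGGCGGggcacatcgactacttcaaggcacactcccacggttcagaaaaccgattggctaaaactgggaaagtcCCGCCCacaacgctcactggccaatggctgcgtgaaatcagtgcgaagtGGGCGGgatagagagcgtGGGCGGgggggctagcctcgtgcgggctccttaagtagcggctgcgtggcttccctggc
TFCP2L1: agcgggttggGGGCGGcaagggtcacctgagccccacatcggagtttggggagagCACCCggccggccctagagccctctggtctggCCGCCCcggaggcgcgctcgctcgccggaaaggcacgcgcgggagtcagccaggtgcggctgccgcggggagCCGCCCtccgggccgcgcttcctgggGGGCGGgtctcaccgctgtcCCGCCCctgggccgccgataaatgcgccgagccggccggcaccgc
DPPA4: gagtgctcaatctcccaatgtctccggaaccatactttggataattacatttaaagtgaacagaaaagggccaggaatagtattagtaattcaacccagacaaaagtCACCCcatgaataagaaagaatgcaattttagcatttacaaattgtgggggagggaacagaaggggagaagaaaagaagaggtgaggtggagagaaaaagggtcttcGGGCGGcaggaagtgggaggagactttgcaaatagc

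In the full window of 300 bases, which adds the first 50 transcribed bases, DPPA5 held 20 CpG dinucleotides, OOEP 23, DDX43 21 and TFCP2L1 43, beside a median of 14 over 35116 promoters. DPPA4 held 5 CpG, DPPA2 held 7 and DPPA3 held 6, whereas ZIC2 held 35, KLF4 33 and KLF17 18. KLF5 has a pair of windows with 4 and 37 CpG. Among the 9 genes, CpG-poor promoters thus occurred at the top of the order of levels (DPPA4) and in its lower tier (DPPA3), and CpG-rich promoters at ZIC2 as well as at KLF4. CACCC was present in 59.9% and CCGCCC in 45% of all promoters, so that a match in a member is common among genes. CACCC had 1 match in DPPA5, TFCP2L1 and DPPA4 and 6 in KLF17, and CCGCCC had 3 matches in DPPA5, 5 in TFCP2L1 and none in DPPA2 or DPPA3. Neither the octamer ATGCAAAT nor the STAT-type motif TTCNNNGAA, present in 1.77% and 7.66% of all promoters, matched a window of the 9 genes, of OOEP or of DDX43, on either strand.

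Distances to further neighbours are between the lower ends of the genes. GDF3, a TGF-beta family ligand of pluripotent cells, lies 21.6 kb from DPPA3 and was higher in S6K1-/- hESCs, with 792, 860 and 795 counts in WT and 1015, 1068 and 894 in S6K1-/- libraries (log2 fold change 0.34, adjusted p = 3.99e-04 by edgeR). DPPA3 itself had the opposite sign. NANOG, 76.4 kb from DPPA3, had a log2 fold change of 0.05. SLC2A14, a glucose transporter gene 101 kb from DPPA3, had 89, 84 and 66 counts in WT and 45, 49 and 41 in S6K1-/- libraries and was lower at 0.05 (log2 fold change -0.76, adjusted p = 0.00368 by edgeR). Above the DPPA2-DPPA4 pair, at 1.56 Mb from DPPA4, the antisense RNA NECTIN3-AS1 had 2167, 1852 and 2204 counts in WT and 312, 285 and 271 in S6K1-/- libraries (log2 fold change -2.78, adjusted p = 6.03e-12 by edgeR). NECTIN3, which encodes a cell adhesion protein, was higher by 0.59 on the log2 scale (adjusted p = 1.68e-06 by edgeR), and reads of the 2 genes cannot be told apart where they overlap if strand was not used in counting. Over the 48 tested neighbours of the 9 genes, 1 was lower and 4 were higher at 0.001, 3 were lower and 5 higher at 0.05, and the median log2 fold change was -0.01. The shares of all genes tested were 2.54% lower and 1.42% higher at 0.001 and 8.31% and 5.47% at 0.05.

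Further genes associated with the naive state were described from a list of 39 genes, of which 37 were in the table and 23 were tested. Of these, 5 were higher in S6K1-/- hESCs at 0.001 and 0 were lower by edgeR, with 7 higher and 1 lower at 0.05 and 8 higher and 3 lower by an unadjusted p below 0.05. Over all genes tested the shares were 1.42% higher and 2.54% lower at 0.001, 5.47% and 8.31% at 0.05, and 11.8% and 14.5% by the unadjusted p. DESeq2's Wald test called 5 genes of the list. Those called by edgeR at 0.001 were OOEP, GBX2, TFAP2C, PRDM14 and GDF3, of which OOEP and GDF3 are also neighbours of members. GBX2, a homeobox factor of the LIF-STAT3 network, had 509, 573 and 441 counts in WT and 809, 838 and 708 in S6K1-/- libraries, a log2 fold change of 0.69 (adjusted p = 7.21e-06 by edgeR). TFAP2C, which opens naive enhancers in human cells, had a log2 fold change of 0.38 (adjusted p = 6.39e-05 by edgeR), with 41.4 ± 2.13 CPM in WT and 54.1 ± 0.612 in S6K1-/- hESCs (SD, n = 3). PRDM14, a repressor of differentiation genes, had 1529, 1523 and 1451 counts in WT and 1854, 1856 and 1571 in S6K1-/- libraries (log2 fold change 0.29, adjusted p = 3.62e-04 by edgeR).

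UTF1 and ZFP42, chromatin-associated and zinc finger genes of pluripotent cells, were higher at 0.05 (log2 fold changes 0.41 and 0.17, adjusted p = 0.00170 and 0.00874 by edgeR), and VSNL1, a calcium sensor, was lower (-0.17, adjusted p = 0.0426 by edgeR). VSNL1 lost this call without any 1 library other than S6K1-/- replicate 3, with adjusted p up to 0.177. Over the 11 alternative fits by edgeR or DESeq2, VSNL1 was below 0.05 in 5. Other genes of the list had few counts or did not pass the test. Of the 37 in the table, 4 were at 0 in each library and 8 did not exceed 3 counts. DNMT3L, a cofactor of DNA methylation, had 5, 6 and 2 counts in WT and 3, 0 and 2 in S6K1-/- libraries. SUSD2, a surface marker of naive cells, had 89, 66 and 57 counts in WT and 72, 72 and 61 in S6K1-/- libraries (log2 fold change 0.01, adjusted p = 0.973 by edgeR). ESRRB and TBX3 had log2 fold changes of -0.44 and -0.66 that did not pass the test (adjusted p = 0.0740 and 0.130 by edgeR). UTF1, ZFP42, VSNL1, DNMT3L, SUSD2, ESRRB and TBX3 were picked after their values were seen. The median of the 23 genes was 0.06. GDF3 and PRDM14 each lost the call at 0.001 when replicate 1 or 3 of WT, or replicate 1 or 2 of S6K1-/- hESCs, was left out, with 3 genes of the list called in each case.

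Genes associated with the primed state were described from a list of 39, of which 38 were in the table and 37 were tested. At 0.001, 8 fell in S6K1-/- hESCs and 2 rose, beside 2.54% and 1.42% of all genes tested. At 0.05 the numbers were 16 and 8, beside 8.31% and 5.47%. These shares were not matched for level, and the list summed to between 8133 and 8273 CPM in WT libraries. FZD7, a WNT receptor, showed the smallest adjusted p, with 216 ± 3.88 CPM in WT and 122 ± 0.0883 in S6K1-/- hESCs (SD, n = 3) and a log2 fold change of -0.82 (adjusted p = 6.55e-10 by edgeR). VIM, the intermediate filament vimentin, and FGF2, the growth factor of primed self-renewal, had log2 fold changes of -0.55 and -0.39 (adjusted p = 6.22e-06 and 1.97e-05 by edgeR). DNMT3B, the de novo DNA methyltransferase of primed cells, had 34830, 34421 and 32650 counts in WT and 27268, 26076 and 23269 in S6K1-/- libraries, a log2 fold change of -0.35 (adjusted p = 4.88e-05 by edgeR). The higher genes were DUSP5 and DUSP6, phosphatases of the ERK pathway, with log2 fold changes of 0.42 and 0.23 (adjusted p = 3.18e-05 and 6.74e-04 by edgeR). DUSP6 was above 0.001 in each fit with a library left out, with adjusted p between 0.00122 and 0.00577. The median of the list was -0.11, and ZIC2, the primed factor among the 9 genes, was not part of it.

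**Figure D5:**
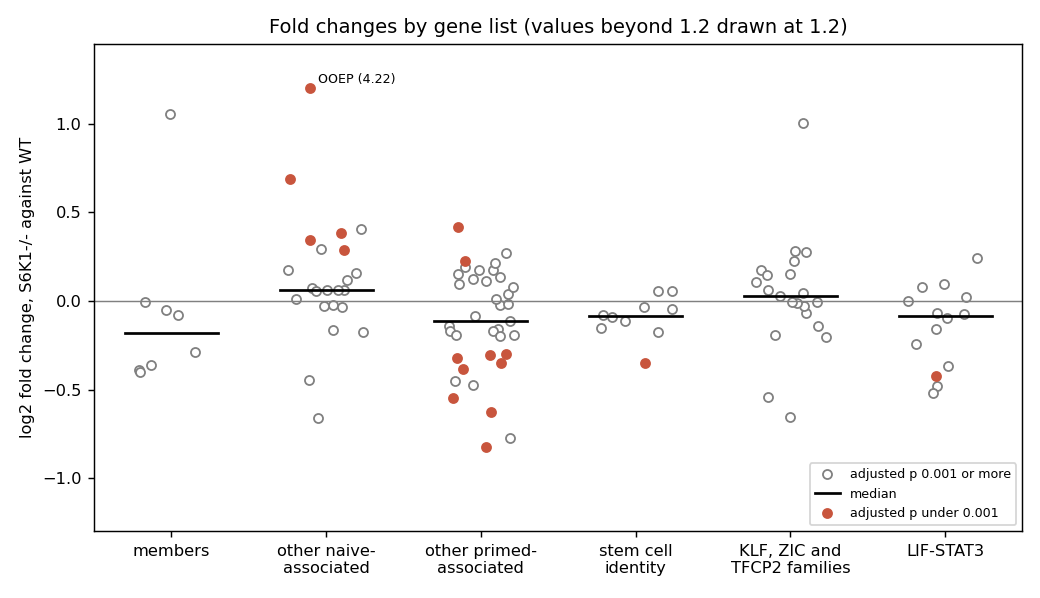
Log2 fold change of S6K1-/- against WT hESCs (vertical axis) for the tested genes of 6 groups, with 1 point per gene, filled where the adjusted p of edgeR was below 0.001, and a bar at the median. OOEP at 4.22 is drawn at the upper limit. The 9 genes hold no filled point, whereas 5 naive-associated genes are filled above 0 and, among primed-associated genes, 8 below 0 and 2 above it.

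Relatives of the members were called in both directions at 0.05. Of 24 other genes of the KLF, ZIC and TFCP2 or grainyhead families, 21 were tested and none passed 0.001 by edgeR, with 1 lower and 3 higher at 0.05 and 2 lower and 7 higher by an unadjusted p below 0.05. Among all genes tested 8.31% were lower and 5.47% higher at 0.05, and 14.5% and 11.8% by the unadjusted p. DESeq2's Wald test called 1 of them at 0.001. ZIC5, which lies on the opposite strand with its lower end 18.8 kb from that of ZIC2, had a log2 fold change of 0.15 (adjusted p = 0.0487 by edgeR). KLF10 had a log2 fold change of 0.23 and KLF7 had a log2 fold change of -0.20 (adjusted p = 0.0146 and 0.0199 by edgeR). Calls at 0.05 were lost for ZIC5 without replicate 1 or 3 of WT or replicate 2 or 3 of S6K1-/- hESCs (adjusted p up to 0.187). The same libraries ended the call of KLF7 (up to 0.0952), and KLF10 lost it without S6K1-/- replicate 2 (0.0530). Over the 11 alternative fits by edgeR or DESeq2, the adjusted p was below 0.05 in 5 for ZIC5, 6 for KLF7 and 10 for KLF10. The median of the 21 was 0.03.

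In a list of ligands, receptors and signalling genes of the LIF-STAT3 pathway, which supports the naive state, the called genes were lower. None of them was a ligand. Of 15 listed genes 14 were tested, with 1 lower at 0.001, 4 lower at 0.05 and 0 higher by edgeR, where 5 were lower and 0 higher by an unadjusted p below 0.05 and DESeq2's Wald test called 0 at 0.001. The corresponding shares of all genes tested were 2.54%, 8.31% and 14.5% for lower genes. SOCS3, the feedback inhibitor that STAT3 induces, had 417, 410 and 349 counts in WT and 290, 286 and 264 in S6K1-/- libraries (log2 fold change -0.42, adjusted p = 9.36e-04 by edgeR). Its adjusted p was between 0.00125 and 0.00746 when a library was left out, so that each of these fits lost the call at 0.001. The receptors OSMR and IL6R had log2 fold changes of -0.52 and -0.37 (adjusted p = 0.0161 and 0.0286 by edgeR), and PIAS3, an inhibitor of STAT3, had -0.16 (adjusted p = 0.0330). With a library left out, the adjusted p of PIAS3 was between 0.0661 and 0.115. OSMR exceeded 0.05 when replicate 1 of WT (0.0897) or replicate 1 (0.0838) or 2 (0.0581) of S6K1-/- hESCs was left out, and IL6R without any 1 library other than WT replicate 3 (up to 0.145). Over the 11 alternative fits by edgeR or DESeq2, the adjusted p was below 0.05 in 7 for OSMR, 5 for IL6R and 3 for PIAS3. LIF and STAT3 themselves had log2 fold changes of -0.24 and 0.08 and did not pass the test (adjusted p = 0.0739 and 0.214 by edgeR).

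Among 10 genes of stem cell identity, which share NANOG with the naive and DNMT3B with the primed list, DNMT3B was the 1 gene called at 0.001, and SALL4 and TDGF1 were lower at 0.05 (log2 fold changes -0.17 and -0.15, adjusted p = 0.00566 and 0.0308 by edgeR), beside 2.54% and 8.31% of all genes tested. TDGF1 lost this call without replicate 2 or 3 of WT or replicate 1 or 3 of S6K1-/- hESCs, with adjusted p up to 0.166. By an unadjusted p below 0.05 in edgeR, 5 of the 10 were lower and 0 higher, beside 14.5% and 11.8% of all genes tested. WT and S6K1-/- libraries did not overlap for 6 of the 10, all lower, beside 16.7% of all genes tested. The median log2 fold change of the 10 was -0.09, with 8 below 0. Genes of the zygotic activation programme were nearly silent. Of 27 listed genes, 25 were in the table, 15 of them, KLF17 and DUX4 included, were at 0 in each library, and 19 did not exceed 3 counts. SLC34A2, CCNA1 and DPPA3 were the 3 genes of this list tested, with log2 fold changes of -0.69, -0.37 and -0.40 and adjusted p-values of 0.0396, 0.0524 and 0.152 by edgeR. SLC34A2 was above 0.05 in each fit with a library left out (0.0533 to 0.124), and it was below 0.05 in 3 of the 11 alternative fits.

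Markers of other cell types were summed as lists, and their part in the results was not tested. The mesoderm and endoderm list of 15 genes summed to between 39.0 and 43.8 CPM in WT and between 44.1 and 48.0 in S6K1-/- libraries, and without NCAM1 to between 23.9 and 27.9 CPM in WT and between 23.4 and 24.9 in S6K1-/- libraries, with HAND1 at 0 and SOX17 and GATA6 at 2 counts or fewer in each library. FOXA2, NCAM1 and MIXL1 had the smallest p in it, with log2 fold changes of -0.88, 0.49 and 0.24 and adjusted p-values of 0.00108, 0.00109 and 0.0449 by edgeR. MIXL1 was above 0.05 without any 1 library other than WT replicate 2 (up to 0.131), and it was below 0.05 in 3 of the 11 alternative fits. The 13 neuroectoderm genes summed to between 480 and 502 CPM in WT and between 460 and 478 in S6K1-/- libraries, most of it from NES, which had 442 CPM in WT and 424 in S6K1-/- hESCs. In this list SIX6, an eye field factor, was lower (log2 fold change -1.57, adjusted p = 1.41e-08 by edgeR), PAX6 was higher (0.76, adjusted p = 2.69e-04 by edgeR) and SOX1 was higher at 0.05 (1.29, adjusted p = 0.0174 by edgeR). PAX6 lost the call at 0.001 when WT replicate 1 or replicate 2 or 3 of S6K1-/- hESCs was left out, with adjusted p up to 0.00228. SOX1 had 6, 7 and 6 counts in WT and 16, 17 and 12 in S6K1-/- libraries, and passed the low-count filter only through the S6K1-/- group. SOX1 was above 0.05 when replicate 1 or 3 of WT or replicate 1 or 2 of S6K1-/- hESCs was left out (up to 0.0671), and DESeq2's Wald test gave 0.195. The 16 amnion and trophoblast genes summed to between 28.7 and 30.9 CPM in WT and between 27.1 and 29.6 in S6K1-/- libraries, with 4 at 0 in each library. GATA2 was higher (log2 fold change 0.87, adjusted p = 6.39e-05 by edgeR), while KRT7 had a log2 fold change of -0.82 (adjusted p = 0.00103 by edgeR).

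Some limits touch the values of the members. KLF4 overlaps an antisense long noncoding RNA by 766 bp, KLF17 a pseudogene by 360 bp and DPPA2 a small RNA by 260 bp, each on the opposite strand, so that reads in these overlaps may not be separable. The members with the fewest counts, DPPA5, DPPA3, KLF4 and KLF5, also have the widest intervals.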

How the data were processed

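Bulk RNA sequencing of undifferentiated H7 hESCs (3 WT and 3 S6K1-/- libraries, groups and replicate numbers per the labels) was analysed. Libraries were made from poly(A) RNA with a stranded kit. According to the study and the labels, the authors trimmed reads with Trim Galore 0.6.5, aligned them to GRCh38 with Bowtie2 2.4.5 and counted them per gene with featureCounts. The deposited values are raw counts per gene symbol, without normalization. Since Bowtie2 aligns reads without gaps for introns, those spanning exon junctions may be missing. The annotation release and strand setting are not given in the sources used here. A second deposited file holds the authors' own comparison (fold changes, test statistics and p-values) and was not used.

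Of 61155 symbols, 19521 passed filterByExpr. Groups were compared with edgeR 4.0.16 (R 4.3.3) by the quasi-likelihood F test after TMM normalization, with genotype as the only factor and Benjamini-Hochberg adjustment over the genes tested at the study's threshold of 0.001. CPM values use TMM-scaled library sizes. SE and 95% intervals derive from the F statistic. Levels between genes were divided by exonic length. Positions come from GENCODE 44, with 37070 symbols matched directly and 699 by synonym. The steps were tested on simulated data. The fit was repeated with the Wald test of DESeq2 1.42.0, with size factors in place of TMM, without a low-count filter, with a minimum of 10 counts per library, with a replicate block, without each library in turn and at an adjusted p of 0.05. Named genes were the 9 members, RPS6KB1, POU5F1, SOX2 and NANOG, from each list up to 4 genes past the threshold with the smallest adjusted p, or the 3 with the smallest p where fewer than 3 passed, called neighbours (the 3 nearest tested genes per side) and pseudogenes with 10 counts. Genes named outside this rule (DDX43, CGAS, DUSP6, KCNQ5, SLC2A14, ZIC5, PIAS3 and others of the lists or the DPPA5 window) were chosen after their values were seen. The members and lists were chosen with earlier results of these data known, and some genes stand in more than 1 list. Shares over all genes tested were not matched to the lists by level. A few genes covered by the naming rule are not reported here.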

Additional observations from a re-analysis of the deposited data

How the results depend on the processing

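The count of member genes past 0.001 stayed at 0 under size factors of DESeq2, its Wald test, no filter, at least 10 counts, the replicate block and each library left out, and it was 2 at an adjusted p of 0.05. Over those alternatives the log2 fold change ranged from 0.95 to 1.15 for DPPA5 and from -0.34 to -0.22 for TFCP2L1, with adjusted p from 0.00102 to 0.0673 and from 0.00544 to 0.111. KLF4, KLF5, DPPA3, DPPA2 and DPPA4 kept their sign and stayed above 0.05. ZIC2 changed sign to 0.0024 with DESeq2's size factors, 0.0051 with DESeq2's Wald test, 0.0174 without WT replicate 2, 0.0126 without S6K1-/- replicate 1 and 0.0111 without S6K1-/- replicate 3, and POU5F1 to 0.0055 and 0.00057 without S6K1-/- replicates 1 and 2. With a library left out they ranged from -0.0265 to 0.0174 and from -0.108 to 0.0055. The cause was not tested.

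Without the filter on low counts, calls over all genes rose from 774 to 1573 (982 lower, 591 higher), with 2 mesoderm and endoderm and 2 amnion genes. With the filter and an adjusted p of 0.05, there were 2689 calls (1622 lower, 1067 higher). DESeq2's Wald test called 784 genes, 1 of the family list, 2 mesoderm and endoderm genes and 0 of the LIF-STAT3 list. The LIF-STAT3 count also fell to 0 with DESeq2's size factors and at least 10 counts. With a library left out, which also lowers the number of samples, calls ranged from 501 to 680 over all genes, lowest without S6K1-/- replicate 3. They ranged from 313 to 445 for lower and 175 to 235 for higher genes, the latter lowest without S6K1-/- replicate 1 and 179 without S6K1-/- replicate 2. The naive list had 3 to 6 calls, the primed list 7 to 8, the LIF-STAT3 list 0 to 0, mesoderm and endoderm 0 to 1, neuroectoderm 1 to 2, amnion 1 to 2, and the members' neighbours 3 to 4 (3 without WT replicate 1, WT replicate 3 or S6K1-/- replicate 1).

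Replicate numbers were not taken as pairs. Same-numbered WT and S6K1-/- libraries had correlations of deviations of 0.018, 0.0017 and 0.032, and the labels name no shared batch. The fit with the replicate block called 664 genes, 0 members, 0 LIF-STAT3 genes, 1 mesoderm and endoderm gene (NCAM1) and 2 amnion genes (GATA2 and KRT7). Over 53 named genes and 581 alternative values, 517 kept direction and side of 0.001, 41 lost the call, 16 gained it and 7 changed sign. Depth limits KLF17 and DPPA5, which had 0 and at most 35 counts in a library.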
